A study of Mus musculus with 12 samples.

Results

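The zinc finger genes named Zfp followed by a number were followed across 12 RNA-seq libraries made from the mouse cell line C18-4, which was established from type A spermatogonia. The table held 381 such rows among 17576 genes, and 325 of them reached a mean level of at least 1 over the 12 libraries. These 325 genes are the members described here. They were chosen by their name and by the mean level itself, so that level is given as a description with no test. Levels are read as FPKM (fragments per kilobase of transcript, scaled to the mapped fragments of the library), a scale per transcript length on which genes can be compared with each other; no source used here names the unit, and the values could also be TPM.

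The study altered the long non-coding RNA lncRNA8276 with virus. The group 8276OV received virus for overexpression and the group 8276KD received virus for its inhibition, labelled knockdown. The groups 3NC and 5NC are read as the control viruses because the design names 5NC beside overexpression and 3NC beside knockdown; the labels do not explain what 3NC and 5NC carried. Each group had 3 libraries of total RNA from the same line, labelled as from an IRC mouse. No library without virus was analysed here, so every group shares exposure to a virus, and the level of lncRNA8276 was not analysed here. Whether 3 cultures lie behind the 3 libraries of each group is not in the labels, and p-values therefore refer to library-to-library spread that may be technical alone. An exact permutation test of 3 against 3 libraries cannot go below p = 0.1.

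The depth implied by the spacing of the lowest values was alike in all libraries, at 11.9 M to 13.6 M fragments. Of 17 germ cell and spermatogonial marker genes in the table, 14 stayed below 1 in all 12 libraries, among them the defining markers Gfra1, Zbtb16, Ddx4 and Dazl. Uchl1 and Etv5 were above 1 in every library, and Id4 was above 1 in the libraries of the other groups but at 0.82, 0.46 and 0.46 in 8276OV. The summed level of that marker list was 82.9 to 91.4 in 3NC, 94.1 to 98.0 in 5NC, 124 to 146 in 8276KD and 76.9 to 88.3 in 8276OV. Uchl1 alone made most of that sum, at 73.0 to 82.1 in 3NC and 118 to 139 in 8276KD, while Etv5 was lower in 8276KD, at 3.81 to 4.59, than in 3NC, at 7.72 to 7.89. The summed level of 8 peritubular and fibroblast markers was 339 to 353 in 3NC, 568 to 579 in 5NC, 387 to 466 in 8276KD and 448 to 516 in 8276OV. Col1a1 made most of that sum, with a mean of 256 in 3NC and 381 in 5NC, and the markers did not move together. Of 6 tested, 3 were higher and 2 lower in 5NC than in 3NC, where 30.6% and 25.9% of all genes were. The part of these differences in the results on the members was not tested, and in bulk RNA fewer cells of a type and less RNA per cell cannot be told apart. Library 2 of 8276KD stood apart from the other 8276KD libraries in how its values followed transcript GC content. The slope was taken from each gene's deviation from its own mean log2(level + 1) over the 12 libraries. It is therefore relative to the other libraries and not a library's own dependence on GC. Per 10 percentage points of GC it was 0.18 in library 2 and −0.04 and −0.00 in libraries 1 and 3. The slopes were 0.10 to 0.15 in 3NC, 0.15 to 0.20 in 5NC and −0.46 to −0.24 in 8276OV, so the 8276OV libraries had relatively more of GC-poor transcripts.

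C2H2 zinc finger proteins carry tandem units in which a pair of cysteines and a pair of histidines hold a zinc ion, and each unit reads a few bases of DNA. Many of them also carry a KRAB domain, which binds the corepressor Trim28 and brings the histone methyltransferase Setdb1 and heterochromatin proteins to retroelements and imprinted regions. The KRAB genes arose by repeated duplication and lie in clusters, and the Zfp name also covers CCCH proteins that bind RNA and a LIM protein.

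The unit that defines the class is shown here as coding DNA for 5 members, to show how far GC content differs between genes that encode the same fold. These 5 were picked with earlier results of these data known, so they do not show that the GC content of a unit goes with direction. Zfp622, with a transcript GC content of 43.6%, fell in 8276OV. The comparisons below use the GC content of the transcript, not of this unit. Each line is 1 finger with its linker, 84 bases 5′ to 3′, with the codons of the 2 cysteines and 2 histidines in capitals. The sequences come from GENCODE M21 transcripts on GRCm38 (mm10), and each lies in the last exon of its gene.
Zfp600: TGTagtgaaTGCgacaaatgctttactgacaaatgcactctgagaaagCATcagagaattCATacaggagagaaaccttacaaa
Zfp930: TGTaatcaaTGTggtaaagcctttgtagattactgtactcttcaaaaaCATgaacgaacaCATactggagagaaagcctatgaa
Zfp445: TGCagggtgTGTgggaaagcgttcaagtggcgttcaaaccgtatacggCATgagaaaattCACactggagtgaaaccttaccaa
Zfp444: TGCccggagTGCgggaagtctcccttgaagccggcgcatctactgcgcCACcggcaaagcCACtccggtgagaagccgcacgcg
Zfp771: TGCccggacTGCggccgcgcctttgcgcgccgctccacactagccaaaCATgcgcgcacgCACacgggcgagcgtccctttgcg
The Zfp600 unit lies at chr4:146195520-146195603 on the + strand, in exon 5 of 5, and has a GC content of 38.1%. That of Zfp930 lies at chr8:69227964-69228047 on the + strand, in exon 4 of 4, with 35.7%. The Zfp445 unit is at chr9:122853378-122853461 on the − strand, in exon 6 of 6, with 47.6%. All of these genes rose in 8276OV (values below). The Zfp444 unit at chr7:6189546-6189629 on the + strand, in exon 4 of 4, has 67.9%, and the Zfp771 unit at chr7:127253856-127253939 on the + strand, in exon 3 of 3, has 71.4%. Both of these genes fell in 8276OV.

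Coding sequences were found for 323 members, and 312 of them encode at least 1 C2H2 finger. The members encode a median of 10 fingers, 182 of them encode at least 10, and the largest number is 36. A motif like the A box of the KRAB domain was found in 152 members and not in 171; its absence says only that these letters were not found in the longest coding sequence. The KRAB members had a median of 12 fingers, a median transcript GC content of 41.1% and a median level of 4.68. The members with no KRAB motif had a median of 8 fingers, a GC content of 47.9% and a level of 6.14. Over all members the median GC content was 43.6%, against 49.7% over all genes tested. Another member lay within 500 kb of 217 members, and 6 clusters of at least 10 genes held 85 of them. Chromosome 7 carried 74 members, chromosome 17 carried 44 and chromosome 13 carried 29. At least 50% of the transcript was shared with another gene's transcript in 28 members, and 114 members overlapped another RefSeq gene on the genome. Zfp600, Zfp930, Zfp445, Zfp787 and Zfp809, described below, are among these 114. Whether the counting used strand is not given in the sources used here, so reads of such genes cannot be told apart.

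As a class the members sat low in the transcriptome. Their median level was 5.28, with quartiles of 2.97 and 10.6, against a median of 14.3 over the 11133 genes that reached a mean of 1, and 271 members (83.4%) lay below that median. The level was between 1 and 2 for 38 members, at least 10 for 88 and at least 20 for 30. Between 319 and 322 members were at 1 or above in each library, and 307 were at 1 or above in all 12. The choice of members by their mean over the same libraries largely fixes these counts. Around the threshold, Zfp169, Zfp418 and Zfp78 lay just inside at 1.03, 1.02 and 1.01, and Zfp939, Zfp493 and Zfp341 lay just outside at 0.995, 0.938 and 0.912. The median coefficient of variation of a member was 5.82% in 3NC, 5.82% in 5NC, 10.02% in 8276KD and 8.48% in 8276OV.

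**Figure D1:**
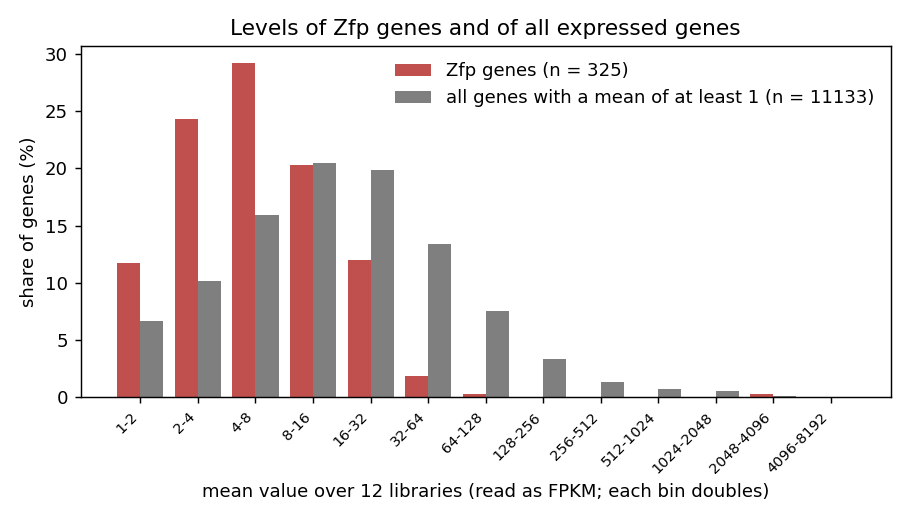
Share of genes (vertical axis, percent) by mean level over the 12 libraries (horizontal axis, FPKM, each bin doubling), for the 325 members and for all 11133 genes with a mean of at least 1. The members peak between 4 and 8, below the other genes, and 1 member, Zfp972, stands alone above 2048.

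A single member stood far above the rest. Zfp972 (gene 78703, chr2:177903064-177925650) had a mean level of 3719, and the next member, Zfp207, had 107; Zfp706, the nucleolar protein gene Zfp330 and the RNA-binding protein gene Zfp106 followed. Zfp972 was at 3727.29, 3731.87 and 3935.95 in 3NC, at 3283.05, 3230.79 and 3426.2 in 5NC, at 4247.69, 5628.25 and 4157.53 in 8276KD, and at 2854.39, 3410.83 and 2997.53 in 8276OV. Its 3 knockdown libraries were the highest of all, with library 2 apart from the other two, while the overexpression libraries overlapped those of 5NC. Of its 561-base annotated transcript 92.2% was shared with other transcripts, and its longest coding sequence held 0 fingers, so its level could not be assigned to a zinc finger mRNA. Its difference between 8276KD and 3NC was 0.29 on the log2(level + 1) scale (limma adjusted p = 0.0268), and 0.27 (limma adjusted p = 0.0539) with a correction for GC content. The sums below leave it out.

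Without Zfp972, the summed level of the members was 2728.0, 2737.5 and 2684.8 in 3NC, 2659.6, 2715.5 and 2684.1 in 5NC, and 2790.6, 2546.7 and 2712.3 in 8276KD. It was 3225.7, 2984.6 and 3131.7 in 8276OV. All 3 overexpression libraries thus lay above all 9 others, and the knockdown libraries overlapped both controls. The KRAB members made most of that difference: their sum was 1042.7, 1047.5 and 1008.4 in 3NC, 965.55, 1007.5 and 983.75 in 5NC, 1123.4, 936.24 and 1061.1 in 8276KD, and 1462.2, 1269.5 and 1379.1 in 8276OV. For the members with no KRAB motif the sum in 8276OV was 1759.2, 1711.1 and 1748.8, against 1690.0, 1703.5 and 1695.6 in 5NC.

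Overexpression was compared with 5NC to ask which members differed when lncRNA8276 was raised. Of the 325 members, all of which passed the filter on low values, 182 rose and 78 fell (limma, Benjamini-Hochberg adjusted over 11360 genes, threshold 0.05). Among all genes tested 30.3% were called higher and 44.1% lower, so rises were more frequent among the members than over all genes, and falls less. The median difference of the members was 0.25 on the log2(level + 1) scale, against −0.09 over all genes. Differences were modest: 0 members rose by over 1 (0.0616% of all genes), and 2 fell by over 1 (2.06% of all genes). The 3 values of 8276OV all lay above those of 5NC in 188 members, where 32% of all genes did so, and all below in 83, where 45.6% did. Quantile normalization, which moved the median over all genes from −0.09 to 0.03, gave 213 rises and 59 falls (39% and 35.2% of all genes).

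The direction of a member followed the GC content of its transcript. Among the 88 members under 40% GC, 82 rose and 0 fell, and among the 84 members over 50% GC, 1 rose and 68 fell. The same order held over all genes: 559 of 693 rose and 15 fell under 40% GC, and 248 of 5391 rose and 4193 fell over 50%. The only member over 50% GC that rose was Zfp954, and the 2 members between 40 and 45% that fell were Zfp622 and Zfp821; these names were chosen after their values were seen. When each library's deviations were corrected for GC with a spline, 90 of 323 members were higher and 46 lower in 8276OV, against 27.8% and 27% of all genes. The median of the members was then 0.05 and that of all genes 0.00. Thus the share of members called higher after the correction was that of all genes, and the share called lower stayed below it. Of the 182 rises, 75 were still called after the correction, 103 were not called and 4 were called lower. Of 77 falls with a GC value, 27 were still called, 43 were not and 7 were called higher. The shares of all genes that kept or lost their call are not given here. The correction removes any biological difference that follows GC along with a technical one, and these cannot be told apart here.

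**Figure D2:**
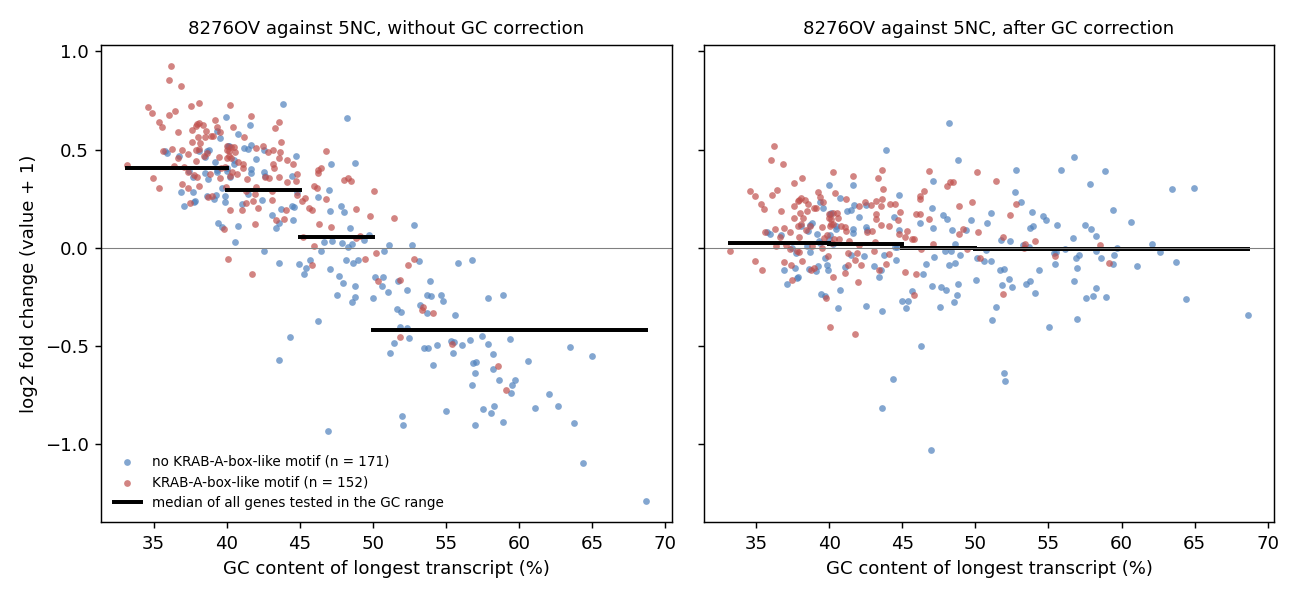
Difference between 8276OV and 5NC (vertical axis, log2 of level + 1) against transcript GC content (horizontal axis, percent) for the members, as deposited and after the GC correction, with KRAB members in red, the others in blue and a black line for the median of all genes in each GC range. As deposited, the members under 40% GC lie above 0 and nearly all of those over 50% lie below it; after the correction the median is 0.05.

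KRAB members and the others differed in their counts, and so did their GC content. Of 152 KRAB members 118 rose and 8 fell in 8276OV, with a median difference of 0.39. Of 171 members with no KRAB motif 64 rose and 69 fell, with a median of −0.02. After the GC correction 59 KRAB members were called higher and 5 lower (median 0.11), and of the others 31 higher and 41 lower. Over all genes, whatever their GC content, 30.3% rose and 44.1% fell, and after the correction 27.8% were called higher and 27% lower. Within the range of 40 to 45% GC, 46 of 56 KRAB members rose and 0 fell, and 29 of 39 others rose and 2 fell. Within 45 to 50%, 16 of 24 KRAB members rose and 0 fell, against 8 rises and 7 falls among 32 others. The difference between the classes was not itself tested, and these counts were not set beside those of all genes in the same GC range. By number of fingers, 78 of 115 members with 10 to 14 rose and 15 fell, and of 39 members with 1 to 4 there were 10 rises and 22 falls. After the GC correction these were 39 higher and 6 lower, and 9 higher and 15 lower; this difference was not tested either. Of the 28 members that share at least 50% of their transcript with another gene, 24 rose and 0 fell. Neither their GC content nor their counts after the GC correction are given here, and a link of direction with shared sequence was not tested.

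The largest rises came from KRAB genes of chromosome 4 and from a few others. Zfp600, with 17 fingers, was at 8.24, 9.09 and 8.03 in 5NC and at 18.75, 15.5 and 16.65 in 8276OV. All 3 overexpression values lay above every value of the other 9 libraries, of which 3NC held 11.94, 12.2 and 11.78. Its mean went from 8.45 ± 0.561 to 16.97 ± 1.65 (SD, n = 3), a difference of 0.92 on the log2(level + 1) scale (SE 0.103, limma adjusted p = 3.79e-06). The difference was 0.52 after the GC correction and 0.47 against 3NC. Zfp985, a KRAB gene with 10 fingers, stood at 6.65, 7.55 and 7.3 in 5NC and at 15.94, 11.41 and 14.34 in 8276OV. The 2 groups did not overlap, and the difference was 0.86, or 0.45 after the GC correction. Zfp992, with 11 fingers and 54.8% of its transcript shared, was at 27.76, 28.14 and 25.31 in 5NC and at 52.85, 43.1 and 50.68 in 8276OV. It rose by 0.83, and by 0.43 after the correction. All 3 of these genes lie on distal chromosome 4, as does a further one, Zfp979. Zfp979, with 3 fingers, was at 18.59, 18.13 and 16.94 in 5NC and at 32.07, 28.06 and 29.99 in 8276OV, a rise of 0.72 and of 0.29 after the correction.

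Large rises were also found outside chromosome 4. Zfp930, on chromosome 8, was at 13.59, 16.85 and 15.66 in 5NC and at 28.01, 24.14 and 26.59 in 8276OV, with 3NC at 16.94, 17.29 and 16.29. Its overexpression libraries lay above all others. Of its transcript 0% was shared, but its span on the genome overlaps that of Gm33178. Zfp35 encodes 17 fingers with no KRAB motif found. It was at 10.34, 11.62 and 11.96 in 5NC and at 20.78, 18.46 and 19.02 in 8276OV, a rise of 0.73 that was 0.50 after the GC correction. The remaining genes of the 8 largest rises, Zfp967 and Zfp97, share 100% of their transcripts with other genes and are uncertain for that reason. For Zfp967 the call was lost after the GC correction.

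The largest falls, of Zfp771 and Zfp428, were in GC-rich genes with no KRAB motif. Zfp771, with 8 fingers and 68.7% GC, was at 6.81, 5.82 and 5.41 in 5NC and at 1.44, 1.86 and 2.38 in 8276OV. Its values in 3NC were 5.68, 4.26 and 4.44, so the overexpression libraries lay below all others. It fell by 1.28 on the log2(level + 1) scale (SE 0.128, limma adjusted p = 1.59e-06) and by 0.34 after the GC correction. Zfp428, with 64.4% GC, was at 21.33, 18.7 and 19.61 in 5NC and at 6.23, 11.83 and 9.01 in 8276OV. Its groups did not overlap, and library 1 of 8276OV was the lowest. The fall of 1.10 became 0.26 after the GC correction and 0.52 against 3NC. Zfp579, of 63.8% GC, was at 7.77, 7.19 and 8.54 in 5NC and at 3.17, 4.49 and 3.71 in 8276OV. It fell by 0.89, and after the correction its difference was −0.07 and no longer called.

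Other large falls were still called after the GC correction. Zfp787, with 7 fingers and 47.0% GC, was at 8.51, 8.09 and 9.1 in 5NC and at 3.29, 4.55 and 4.26 in 8276OV. The overexpression libraries lay below all 9 others, since 3NC held 7.5, 8.58 and 8.03 and 8276KD 7.35, 7.52 and 6.68. It fell by 0.93 (SE 0.0896, limma adjusted p = 1.18e-06), by 1.03 after the GC correction and by 0.85 against 3NC. Zfp444, a neighbour of Zfp787 on chromosome 7, was at 7.21, 6.46 and 7.09 in 5NC and at 3.14, 3.26 and 3.31 in 8276OV. Its 3 overexpression values were nearly equal and lay below every other library. It fell by 0.90, by 0.68 after the GC correction and by 0.79 against 3NC. Zfp523 was at 11.65, 11.26 and 11.87 in 5NC and at 4.77, 7.15 and 6.16 in 8276OV, a fall of 0.86 that was 0.63 after the correction. Its 3NC values of 7.13, 7.9 and 7.22 overlapped those of 8276OV in part. Zfp358 and Zfp524 fell by 0.90 and by 0.88, and both were still lower after the correction, by 0.36 and by 0.25.

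**Figure D3:**
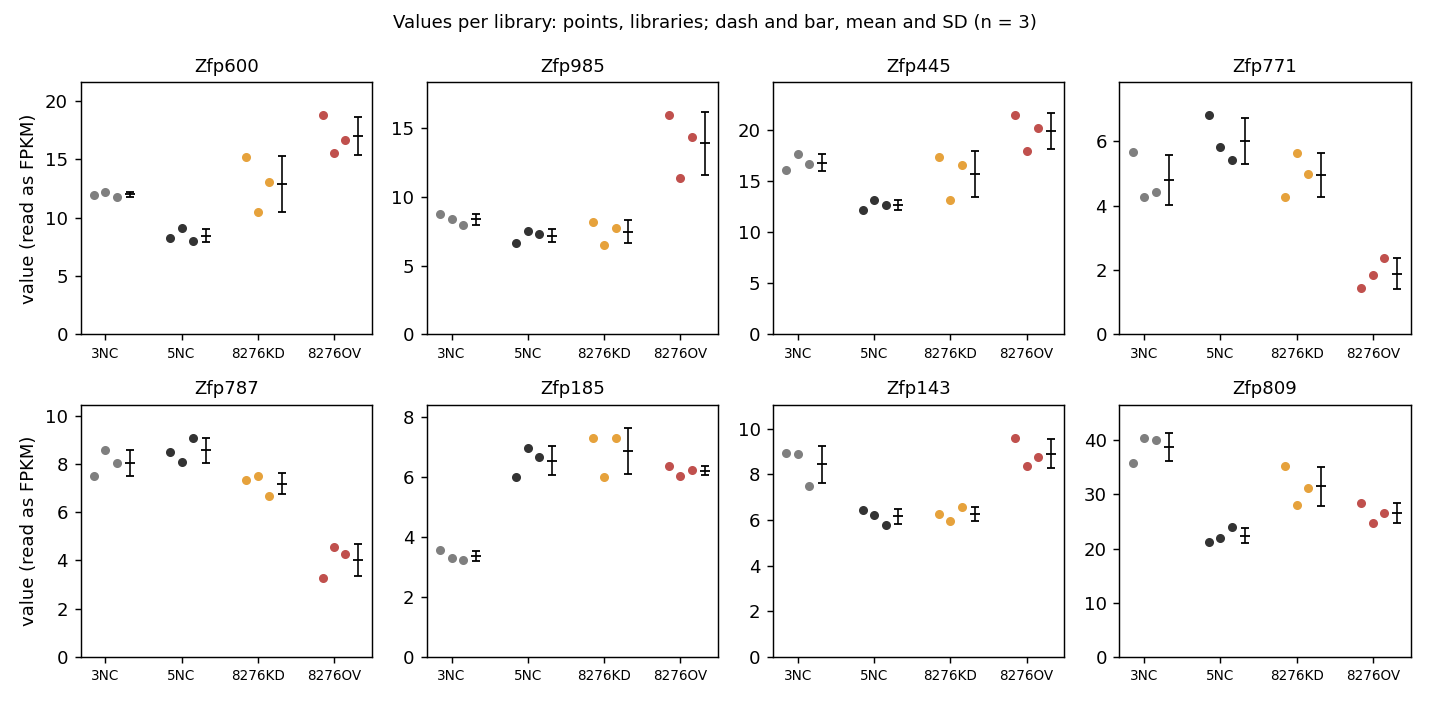
Level in each library (vertical axis, FPKM) of 8 members by group, with points for libraries and a dash and bar for the mean and SD (n = 3). Zfp600, Zfp985 and Zfp445 are highest in 8276OV, Zfp771 and Zfp787 are lowest there, and Zfp185 is lowest in 3NC.

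The members of a genomic cluster tended to be called in 1 direction. Over all genes 30.3% rose and 44.1% fell, and after the GC correction 27.8% were called higher and 27% lower. Both clusters on distal chromosome 4 rose whole: 6 of 6 members at chr4:145510759-146539395, with a median of 0.68, and 6 of 6 at chr4:147132093-147849126, with a median of 0.67. After the GC correction 5 and 4 of these were still higher. The median GC content of the 2 clusters was 35.8% and 35.7%, in the range where most of all genes rose (counts above). The 22 members at chr17:21008941-23564226 had 19 rises and 1 fall with a median of 0.41; after the GC correction there were 4 called higher and 2 called lower (median 0.03). On chromosome 13, 14 of 17 members at 67069398 to 67827000 rose and 0 fell, and 5 were higher after the correction. The median GC content of these chromosome 17 and chromosome 13 clusters was 38.4% and 39.1%, also in the range where most of all genes rose. At chr7:29768552-30169775, with a median GC content of 46.7%, 10 of 14 rose and 0 fell, with 6 still higher. Other clusters went down. At chr6:47835633-48621548, 7 of 8 members fell with a median of −0.48, and at chr7:127233061-127885996, 8 of 10 fell with a median of −0.38. Their median GC content was 55.8% and 53.3%, in the range where most of all genes fell (counts above). After the correction the first of these clusters had 1 member called higher and 1 called lower (median 0.02), and the second had 1 called higher and 2 called lower (median 0.01). At chr7:4915181-5053723, with a median GC content of 61.2%, 5 of 6 fell with a median of −0.59. In the GC-corrected fit 1 was lower and 3 were higher. The 10 members at chr7:24081877-25227876, with a median GC content of 52.1%, had 0 rises and 3 falls. After the correction 3 of them were higher and 2 lower. Whether a cluster differed from all genes of the same GC content was not tested. Members of a cluster share sequence and neighbourhood and are not independent of each other.

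**Figure D4:**
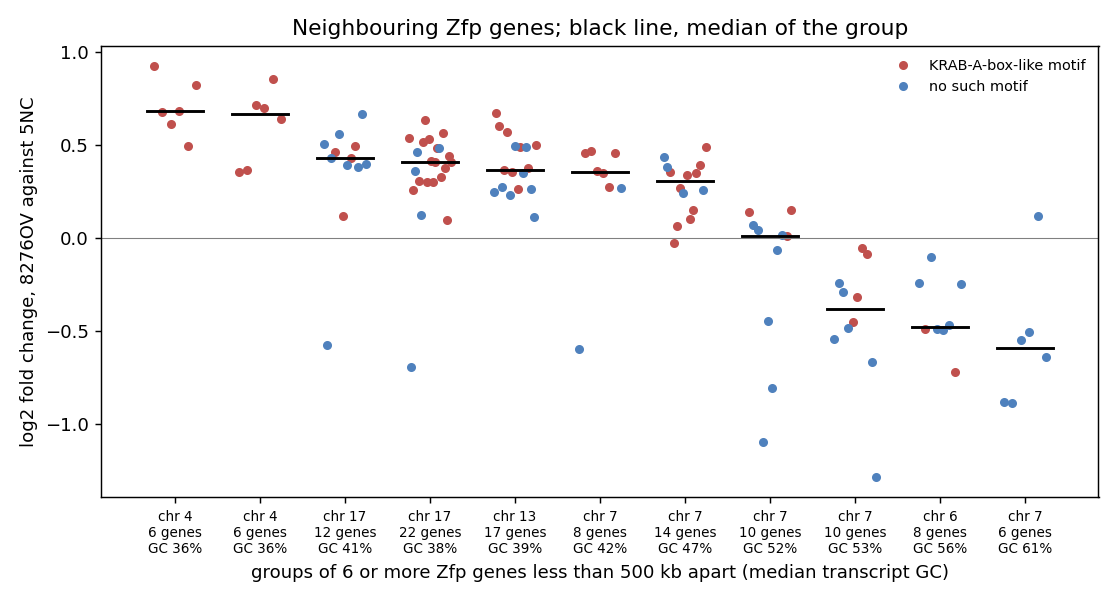
Difference between 8276OV and 5NC (vertical axis, log2 of level + 1) of each member in the 11 genomic clusters of at least 6 members (horizontal axis, with the median GC content), KRAB members in red and a black line for the median. Every member of the chromosome 4 clusters lies above 0, with medians of 0.68 and 0.67, and every member of the chromosome 6 cluster below it.

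Knockdown was compared with 3NC to ask which members differed when lncRNA8276 was lowered, and far fewer did. Of 325 members 38 rose and 44 fell, against 20% and 19.5% of all genes, so both shares were below those of all genes. The median difference was −0.01 for the members and −0.00 for all genes. The 3 values of 8276KD all lay above those of 3NC in 45 members, where 24.6% of all genes did so, and all below in 60, where 25% did. Library 2 of 8276KD weighed on these counts: without it 55 members rose, where 22.3% of all genes did. Without library 1 of 8276KD 21 members rose, where 17% of all genes did. Without library 1 of 3NC 25 rose, and without library 3 of 8276KD 23 did, where 16.4% and 15.4% of all genes rose. With each of these removals the share of all genes moved in the same direction as that of the members. With the GC correction 37 were higher and 72 lower (25.3% and 23.1% of all genes), and quantile normalization gave 44 and 34 (20.3% and 18.7%). Against 5NC in place of 3NC 62 were higher and 76 lower (24.7% and 30.5% of all genes). Of the 38 rises 14 were also called against 5NC and 6 were called lower. Of the 44 falls 21 were also called and 4 were called higher. Both comparisons use the same 8276KD libraries, and the share of all genes that kept their call is not given here. The KRAB members had 19 rises and 14 falls, and the others 18 and 29. Without library 1 of 8276KD 8 KRAB members rose, and without library 2 33 did.

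The members that rose in the knockdown included genes of several roles. Zfp185, the LIM protein that binds the actin cytoskeleton, was at 3.57, 3.3 and 3.24 in 3NC and at 7.31, 5.99 and 7.31 in 8276KD. The groups did not overlap, but 5NC, at 6.0, 6.96 and 6.67, overlapped the knockdown. It rose by 0.84 (SE 0.0764, limma adjusted p = 2.42e-06), and its difference from 5NC was 0.06. Zfp568, the KRAB protein that represses a placental transcript of Igf2, was at 4.54, 5.43 and 5.83 in 3NC and at 8.24, 7.73 and 8.09 in 8276KD. These values also lay above those of 5NC at 6.47, 7.14 and 7.12. The rise was 0.53 against 3NC and 0.19 against 5NC. Zfp763, with 13 fingers, was at 23.59, 23.39 and 22.02 in 3NC and at 37.17, 28.64 and 33.36 in 8276KD. It rose by 0.50 against 3NC and by 0.55 against 5NC. Zfp488, a factor known from oligodendrocytes, was at 19.24, 20.41 and 21.38 in 3NC and at 25.71, 26.97 and 25.54 in 8276KD, and rose by 0.34. It too stood above 5NC in all 3 knockdown libraries, by 0.47. Zfp326, a splicing-linked protein, and the ubiquitin ligase Zfp91 rose by 0.48 and 0.34 against 3NC but differed from 5NC by −0.05 and −0.03. Zfp119a rose by 0.36 against 3NC with a difference of −0.22 from 5NC that was not called, and Zfp229 rose by 0.39 against 3NC and by 0.20 against 5NC.

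Among the falls in the knockdown, Zfp395, a DNA-binding protein induced by hypoxia, was the largest. It was at 9.79, 10.18 and 9.91 in 3NC and at 4.58, 5.66 and 4.97 in 8276KD. The knockdown libraries also lay below 5NC, at 5.84, 6.56 and 7.33. It fell by 0.86 (SE 0.0951, limma adjusted p = 1.48e-05), and by 0.32 against 5NC. Zfp516, an activator of the brown fat gene Ucp1, was at 10.68, 11.11 and 11.4 in 3NC and at 7.73, 7.79 and 7.51 in 8276KD. These groups were far apart relative to their spread, and 5NC lay between them at 9.44, 9.58 and 9.5. It fell by 0.47 against 3NC and by 0.28 against 5NC. Zfp28, a KRAB gene with 51.1% of its transcript shared, was at 1.78, 1.46 and 1.88 in 3NC and at 0.99, 0.75 and 1.12 in 8276KD, and fell by 0.47. Zfp692, which is linked to the cellular response to AICAR, fell by 0.61 against 3NC, and its difference from 5NC was −0.02. Zfp369 fell by 0.57, with −0.20 from 5NC, not called. Zfp973, of whose transcript 98.6% is shared, differed by −0.70 (limma adjusted p = 0.0386), a call that was lost without library 2 of 3NC (−0.43), library 2 of 8276KD (−0.53) or library 3 of 8276KD (−0.74).

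The arms were then set side by side; they share no library. In both arms 60 members were called: 24 were higher in both, where 9.35% of all genes were, and 21 were lower in both, where 11% were. Another 13 were higher with overexpression and lower with knockdown, where 3.3% of all genes were. The opposite pattern was found in 2 members, Zfp664 and Zfp827, where 5.49% of all genes had it. Neither arm was called in 43 members, and the share of all genes called in neither is not given here. The test of the difference between the effects of the arms called 151 members higher with overexpression and 60 lower, against 24.5% and 36.2% of all genes. After the GC correction it called 81 higher and 33 lower, against 24.9% and 24.4%. The largest such differences were −1.33 for Zfp771 and −1.11 for Zfp428, which fell with overexpression and differed by 0.04 and 0.01 in the knockdown. Both falls with overexpression were smaller after the GC correction (values above). Against 5NC the knockdown difference of Zfp428 was −0.57 and called. On the other side the largest differences between the arms were 1.005 for Zfp985 and 0.99 for Zfp930. Zfp967 had 1.02, a call that was lost after the GC correction and, at 0.94, without library 2 of 8276KD.

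**Figure D5:**
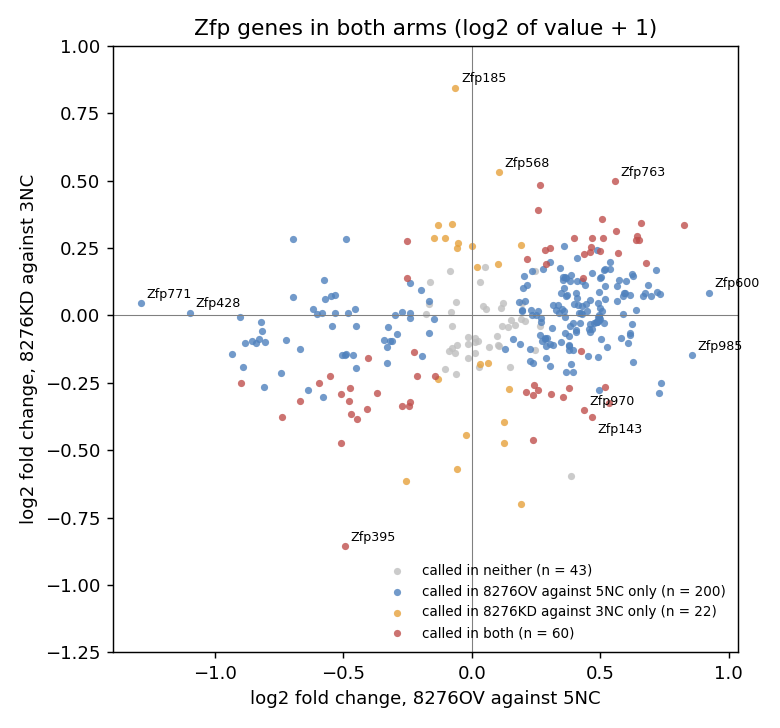
Difference of 8276OV from 5NC (horizontal axis) against difference of 8276KD from 3NC (vertical axis), both in log2 of level + 1, for each member, coloured by the arms in which it was called. The cloud is wide along the horizontal axis and narrow along the vertical one, and 60 members were called in both arms.

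Of the members called in opposite directions, Zfp143, an activator that binds promoters, was at 6.45, 6.22 and 5.8 in 5NC and at 9.61, 8.35 and 8.78 in 8276OV. It was at 8.93, 8.91 and 7.51 in 3NC and at 6.28, 5.94 and 6.57 in 8276KD. Each arm was apart from its own control, yet 8276OV overlapped 3NC and 8276KD overlapped 5NC. The differences were 0.47 and −0.38, and the effects of the arms differed by 0.85 (SE 0.105, limma adjusted p = 2.74e-05). Against the other control virus they were 0.07 and 0.02, neither called. Zfp760, a KRAB gene with 16 fingers, was at 4.92, 5.19 and 4.83 in 5NC and at 8.57, 6.62 and 7.9 in 8276OV. Its knockdown values were 4.85, 4.04 and 4.95 against 6.02, 6.44 and 5.58 in 3NC. The differences were 0.53 and −0.32; against the other control virus they were 0.31, still called, and −0.09, not called. Its knockdown call was also lost without library 2 of 3NC (−0.28). Zfp970 and Zfp52 were called in the opposite direction in both arms when the other control was used, and the knockdown call of Zfp52 was lost without library 1 of 3NC (−0.29), library 3 of 3NC (−0.23) or library 2 of 8276KD (−0.17). Zfp534 differed by 0.36 and −0.30, and after the GC correction the first of these was −0.07 and not called. The second was lost without library 1 of 3NC (−0.25), library 2 of 8276KD (−0.23) or library 3 of 8276KD (−0.28).

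The same direction in both arms was found for Zfp763, which rose by 0.56 and 0.50, and for Zfp395, which fell by 0.49 and 0.86. After the GC correction the overexpression difference of Zfp395 was −0.11 and not called. Zfp516 fell by 0.51 and 0.47. The ubiquitin ligase Zfp598, which marks collided ribosomes, was at 35.12, 33.38 and 34.98 in 5NC and at 17.74, 22.41 and 21.01 in 8276OV. Against 3NC at 28.83, 27.93 and 29.13, its knockdown values were 19.88, 25.45 and 20.43. Both arms lay below both control groups, with falls of 0.74 and 0.38. After the GC correction the first of these was −0.08 and not called. For Zfp526 both arms fell, by 0.45 and 0.38, but the overexpression difference was 0.12 after the correction and the knockdown difference from 5NC was 0.00.

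The control groups differed from each other in many members: 69 were higher and 74 lower in 5NC than in 3NC, where 30.6% and 25.9% of all genes were. This comparison uses the control libraries of both arms, so its values are not independent of theirs. Zfp213 was at 1.95, 1.71 and 1.96 in 3NC and at 4.2, 3.88 and 3.95 in 5NC, a difference of 0.80. Zfp651 was at 2.66, 2.85 and 2.89 in 3NC and at 5.4, 5.23 and 5.5 in 5NC. These groups were well apart, and for Zfp651 the 8276OV libraries, at 2.14, 2.98 and 2.62, were at the level of 3NC. Zfp52, a KRAB gene, was at 4.09, 3.72 and 4.56 in 3NC and at 1.68, 2.02 and 1.75 in 5NC, a difference of −0.86. The retrovirus silencer Zfp809 was at 35.78, 40.47 and 40.02 in 3NC and at 21.17, 21.96 and 23.95 in 5NC, a difference of −0.77. Zfp185 and Zfp827 were higher in 5NC by 0.79 and 0.74, and Zfp970 was lower by 0.66. With 3NC as the control of 8276OV, 157 rises and 78 falls were called, against 33.5% and 41.7% of all genes. Of the 182 rises in 8276OV 135 were also called against 3NC and 5 were called lower; of the 78 falls 60 were also called and 2 were called higher. Both the GC correction and the change of control left 66 rises and 19 falls called. These comparisons use the same 3 libraries of 8276OV and are not independent. The share of all genes that kept their call is not given here.

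By role, the members that act on imprinted genes and retroelements were examined first. Of the 5 tested, 3 rose and 0 fell in 8276OV, where 30.3% and 44.1% of all genes did. After the GC correction 1 was higher and 1 lower, where 27.8% and 27% of all genes were. Zfp445, which maintains imprints, was at 12.16, 13.09 and 12.67 in 5NC and at 21.42, 17.96 and 20.18 in 8276OV. All 3 overexpression values lay above every other library, since 3NC held 16.05, 17.67 and 16.65 and 8276KD 17.36, 13.1 and 16.53. It rose by 0.61 (SE 0.0896, limma adjusted p = 3.69e-05), by 0.36 after the correction and by 0.23 against 3NC. Zfp57, the other imprint protein, was at 24.53, 21.3 and 23.69 in 5NC and at 22.01, 21.07 and 22.01 in 8276OV. These overlapped, with a difference of −0.09, while both 5NC and 8276OV lay below 3NC at 36.75, 36.34 and 34.53. Zfp932, a repressor of endogenous retroviruses with 77.8% of its transcript shared, rose by 0.48, and after the correction by 0.08, not called. Zfp809 rose by 0.24 against 5NC and was lower than 3NC by 0.53, and it fell by 0.30 in 8276KD. The rise was not called without library 1 of 5NC (0.20) or library 1 of 8276OV (0.19). Zfp819 was not a member, with a mean level of 0.009.

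The CCCH proteins, which bind AU-rich elements and lead mRNAs to decay, had 0 rises and 2 falls among 3 tested in 8276OV, where 44.1% of all genes fell. In 8276KD 1 rose and 2 fell, where 20% and 19.5% of all genes did. Zfp36 was at 6.12, 6.7 and 6.16 in 5NC and at 3.89, 4.11 and 3.56 in 8276OV, and at 6.25, 5.67 and 6.2 in 3NC against 4.67, 5.6 and 4.52 in 8276KD. Both arms lay below their controls, with falls of 0.59 and 0.25, although one knockdown value lay close to the lowest of 3NC. The knockdown call of Zfp36 was lost without libraries 1 or 3 of 3NC (−0.23 each) and without libraries 1 or 3 of 8276KD (−0.22 and −0.20). Zfp36l2 fell by 0.27 and 0.34, and the first was 0.14 after the GC correction. Zfp36l1 rose by 0.25 in 8276KD, with −0.06 in 8276OV.

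Among the 9 members that act on RNA, ribosomes or the spindle, 4 rose and 4 fell in 8276OV, and after the GC correction 3 were higher and 1 lower, where 30.3% and 44.1% of all genes rose and fell (27.8% and 27% after the correction). Zfp207, a spindle protein that binds Bub3, was at 81.59, 80.64 and 79.03 in 5NC and at 120.31, 109.77 and 118.46 in 8276OV. However, 3NC held 121.4, 119.6 and 118.53, so 8276OV was apart from 5NC and at the level of 3NC. The rise of 0.52 became −0.05 against 3NC. The RNA-binding proteins Zfp106 and Zfp638 rose by 0.19 and 0.52, and Zfp326 by 0.26. Against 3NC, however, Zfp106 was lower by 0.20, and the difference of Zfp326 was −0.11 and not called after the GC correction. Zfp622, a factor of the large ribosomal subunit, was at 26.63, 24.8 and 24.45 in 5NC and at 14.25, 17.76 and 18.35 in 8276OV. It fell by 0.57, and by 0.81 after the GC correction. Zfp593, another such factor, fell by 0.58 and the double-stranded RNA-binding protein Zfp346 by 0.21, neither called after the correction. In 8276KD 2 of the 9 rose and 2 fell, where 20% and 19.5% of all genes did.

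The pluripotency and promoter-binding factors had 3 rises and 1 fall among 5 tested in 8276OV, and 1 higher and 1 lower after the GC correction. Over all genes 30.3% rose and 44.1% fell, and after the correction 27.8% were called higher and 27% lower. Zfp148, which binds GC-rich promoters, rose by 0.24 but was lower by 0.11 after the GC correction, and Zfp217 fell by 0.17, or by 0.12 and not called without library 2 of 5NC. Zfp281 differed by 0.17 (limma adjusted p = 0.0835). Of 5 developmental factors tested, 0 rose and 4 fell in 8276OV, where 44.1% of all genes fell, and after the GC correction 2 were higher and 1 lower. The Sox9 partner Zfp219 was at 10.38, 9.78 and 10.88 in 5NC and at 4.76, 7.28 and 5.53 in 8276OV, a fall of 0.74, and the difference was 0.02 after the correction. Zfp703 and Zfp503 fell by 0.57 and by 0.24, and after the correction both were called higher, by 0.13 and 0.39. Of 9 partners of chromatin complexes, 3 rose and 6 fell in 8276OV, where 30.3% and 44.1% of all genes did. After the correction 1 was higher and 1 lower, where 27.8% and 27% of all genes were. Zfp644, a partner of the G9a methyltransferase complex, was at 15.79, 15.98 and 15.59 in 5NC and at 24.87, 18.42 and 22.27 in 8276OV. It rose by 0.44 (0.07 after the correction), and Zfp410, an activator of Chd4, rose by 0.29 (0.09 after it). Neither was called after the correction.

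The corepressors through which KRAB proteins act are no members, and 23 of 24 listed were in the table. Of these 5 rose and 11 fell in 8276OV, where 30.3% and 44.1% of all genes did, with a median of −0.09, the value of all genes. After the GC correction 7 were higher and 5 lower, where 27.8% and 27% of all genes were. Trim28 was at 105.69, 103.94 and 102.33 in 5NC and at 68.86, 82.86 and 74.9 in 8276OV, with 94.35, 90.35 and 94.38 in 3NC. It fell by 0.46 and was below both controls, yet after the GC correction it was called higher by 0.20. Setdb1 differed by −0.01 (limma adjusted p = 0.929). Mphosph8, a subunit of the HUSH silencing complex, was at 23.99, 20 and 21.98 in 5NC and at 36.54, 31.36 and 34.32 in 8276OV. It rose by 0.61, by 0.33 after the correction, and by 0.38 in 8276KD. In the knockdown 7 corepressors rose and 5 fell, where 20% and 19.5% of all genes did.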

How the data were processed

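RNA-seq of 12 libraries of C18-4 cells was analysed from the table deposited by the authors, with values read as FPKM from the values themselves; the labels do not name the unit. Per the submitters' processing notes the genome was mm10. How reads were aligned and counted, and whether by strand, is not given in the sources used here. Members and gene lists were chosen with earlier results of these data known. The values were tested as log2(FPKM + 1) with limma 3.58.1 in R 4.3.3 (genes at 1 or above in at least 3 libraries, 11360 genes; joint fit of 4 groups; trend and robust eBayes; two-sided; Benjamini-Hochberg over all genes, threshold 0.05), tested on simulated data. Fold changes on this scale understate those of low genes. The GC correction fitted a natural spline with 5 degrees of freedom on the longest GENCODE M21 transcript to 11197 genes. The design called for a protein table; fingers and KRAB motifs (regular expression D[VIMLA].[VILMA].[FLY][STA].[EKQD][ED][WL]) were instead read from translated GENCODE M21 coding sequences, longest per gene. Shared sequence was found with BLAST+ 2.17.0 (95% identity over 100 bases). Named genes were the largest called changes without overlap between groups (up to 8 each way per arm, up to 4 between controls), the 5 highest members, the 3 nearest the threshold on either side, up to 5 called in both arms in the same or opposite directions, the 5 largest differences between arms, and the role lists. Precision is limited by 3 libraries a group . Alternatives covered pseudocounts, filters, scaling, GC, replicate block, other controls and leaving out each library.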

Additional observations from a re-analysis of the deposited data

How the results depend on the processing

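Without Zfp972 the counts were 182 and 78 in 8276OV and 37 and 44 in 8276KD. Among 200 members at 5 or above in 3 libraries, 118 were higher in 8276OV, 26 lower in 8276KD, and 44 higher and 47 lower in 5NC than in 3NC. With this filter the shares of all genes were 33.7%, 19.4%, 31.9% and 26.4%. GC-corrected, 8276OV had 90 higher and 46 lower, 8276KD 72 lower, and the difference between arms 81 higher and 33 lower. The shares of all genes were 27.8% and 27%, 23.1%, and 24.9% and 24.4%. Replicate numbers did not pair the libraries (all same-number correlations were at most 0.09). With a replicate block the counts were 182 and 78 in 8276OV, 35 and 41 in 8276KD, 69 and 72 between controls and 146 and 60 for the difference between arms. Of all genes these were 30.2% and 43.8%, 19.7% and 19.35%, 30.5% and 25.6%, and 24.2% and 35.9%. With the replicate block and GC correction there were 88 and 44 in 8276OV, 69 lower in 8276KD, and 80 and 30 for the difference. Of all genes these were 27.4% and 26.5%, 22.6%, and 24.4% and 24.1%. Leaving out single libraries gave 162 to 180 higher and 73 to 77 lower in 8276OV, 21 to 55 and 31 to 40 in 8276KD, 58 to 61 and 57 to 64 between controls, and 126 to 157 and 53 to 64 for the difference. Of all genes it gave 27.5% to 31.0% and 41.0% to 43.8% in 8276OV, and 15.4% to 22.3% and 14.7% to 21.8% in 8276KD. Between controls it gave 27.1% to 27.4% and 22.1% to 22.8%, and for the difference 21.8% to 25.8% and 33.4% to 37.5%. Against 5NC, 8276KD had 62 higher and 76 lower (24.7% and 30.5% of all genes). The cause of these shifts was not tested. Signs of 8276OV differences turned with the GC correction, with or without the replicate block, for Zfp534 (−0.066), Zfp52 (−0.039), Zfp526 (0.12), Zfp36l2 (0.14), Zfp326 (−0.11), Zfp346 (0.036), Zfp148 (−0.11), Zfp217 (0.039), Zfp503 (0.39), Zfp703 (0.13), Zfp219 (0.019), Zfp335 (0.19) and Zfp451 (−0.10), and with quantile normalization for Zfp217 (0.0077). They turned against 3NC for Zfp970 (−0.23), Zfp52 (−0.55), Zfp106 (−0.20), Zfp207 (−0.045), Zfp809 (−0.53), Zfp521 (0.54), Zfp532 (0.15), Zfp827 (0.48) and Zfp185 (0.72), and against both controls for Zfp52 (−0.12), Zfp106 (−0.0044), Zfp809 (−0.15), Zfp521 (0.20), Zfp827 (0.12) and Zfp185 (0.33). Signs of 8276KD differences turned against 5NC for Zfp326 (−0.053), Zfp119a (−0.22), Zfp91 (−0.031), Zfp143 (0.021), Zfp970 (0.31), Zfp52 (0.57), Zfp526 (0.0015), Zfp428 (−0.57), Zfp622 (−0.34), Zfp106 (0.28), Zfp207 (0.45), Zfp57 (0.48), Zfp445 (0.28), Zfp809 (0.47), Zfp281 (0.24), Zfp521 (−0.40), Zfp703 (−0.30), Zfp644 (−0.22), Zfp687 (0.052), Zfp532 (−0.25) and Zfp827 (−0.46), and against both controls for Zfp52 (0.14), Zfp207 (0.17), Zfp57 (0.17), Zfp809 (0.087), Zfp521 (−0.054) and Zfp827 (−0.091). Pseudocounts of 0.1 and 0.5 left all 132 values of named genes on the same side of the threshold.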
